A study of Zea mays with 12 samples.

Results

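This report describes 114 of the 17734 probe sets on a maize expression array, namely those with strong signal in endosperm of the inbred Mo17, little signal in endosperm of the inbred B73, and intermediate signal in both reciprocal hybrids. The members were chosen from the measured values. Each of the 12 arrays was scaled to a common 2% trimmed mean, and genotype means were taken on the linear scale. A member had its lowest Mo17 array at 100 or more and at least 5 times its highest B73 array. Its female weight f, which is 0.5 when the hybrids have the same level and 1 when each hybrid has the level of its female parent, lay from 0.4 to under 0.9. Control probe sets and the 1453 probe sets with a gene annotation were not eligible, so all members came from 16168 probe sets that have no gene name here. They are called by their probe set names, and no function is given for them. Of 125 unannotated probe sets that met the inbred part of the rule, 114 met the limits on f, 9 had f of 0.9 or more and 2 had f under 0.4.

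Endosperm was collected 19 days after pollination from 4 genotypes: the inbreds B73 and Mo17 and the reciprocal hybrids B73xMo17 and Mo17xB73. Each genotype had 3 arrays, 1 for each of 3 crossing dates, and each array was hybridised with RNA pooled from 36 endosperms of 6 field-grown ears. The parent written before the x was taken as the female parent, which is the usual convention and is not stated in the labels. P-values here measure the spread between such pools, and the number of arrays limits the precision.

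Maize endosperm is triploid, with 2 maternal genome doses and 1 paternal dose. A transcript made in proportion to the number of Mo17 copies, and not made from B73 copies, is therefore put by dose at 0.333 of the Mo17 level in B73xMo17 and at 0.667 of it in Mo17xB73. B73 and Mo17 are widely used inbred lines known to differ in the presence of genes and in sequence within shared genes. An array probe set reports only RNA that matches its probes, so a transcript that is missing from an inbred and a transcript whose sequence differs under the probes both give low signal. These data hold no genome sequence of either inbred, so the 2 cases cannot be told apart.

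Trimmed means as deposited ran from 304 to 458, and arrays of 1 genotype correlated at 0.983 to 0.992 over probe sets. All 10 endosperm markers were measured, and their summed scaled signal was 94471 to 100888 in B73, 94295 to 97104 in B73xMo17, 74566 to 82434 in Mo17xB73 and 59029 to 70836 in Mo17. Much of this fall came from dzs18, which averaged 16715 in B73 and 40.9 in Mo17, and o2, which averaged 3907 and 178. PBF averaged 3803 in B73 and 3932 in Mo17, and the other endosperm markers were lower in Mo17 by less than 2-fold. The sum therefore does not measure endosperm content. Markers of other kernel parts moved with genotype as well. The 8 measured probe sets of the basal transfer layer, the tissue that takes up sugar from the mother plant, summed to 1569 to 2521 in B73, 2133 to 3630 in B73xMo17, 9191 to 10137 in Mo17xB73 and 6772 to 9593 in Mo17. The 6 measured embryo markers of 8 listed summed to 505 to 1082, 699 to 1811, 1771 to 2359 and 1555 to 1862 in the same order, and the 5 measured markers of green and maternal tissue stayed between 130 and 250 on all arrays. The 3 measured aleurone markers summed to 401 to 2190, 265 to 1370, 1099 to 1639 and 614 to 698. They ran in different directions, with averages of 906, 430, 677 and 47.8 for PLTP and 159, 189, 666 and 596 for per-1. The third, c1, was dim in every genotype, at 11.6, 18.9, 17.3 and 9.39. No aleurone level by genotype is read from this sum. No marker was at 0 on any array. The transfer layer list was higher in Mo17xB73 and Mo17 than in B73 and B73xMo17, and so was the embryo list by its median array, while the embryo sums of B73 and B73xMo17 overlapped. Both lists had a higher median array in Mo17xB73 than in Mo17, unlike the members' median position. In pooled tissue, fewer cells of a type and less RNA per cell cannot be told apart, and the part of these differences in the members' levels was not tested.

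The members covered a wide range of signal. Their mean scaled signal in Mo17 ran from 113 to 6553, with a median of 373 and quartiles of 204 and 796. In B73 it ran from 0.589 to 474 with a median of 19.0. In 23 members every B73 array lay under 10.6, the 20th percentile of all values, whereas 14 members had a B73 array above 100. The lowest Mo17 array exceeded the highest B73 array by 5.13 to 434 times, with a median of 10.4. These values follow from the rule and describe the choice. The rule required low B73 signal relative to Mo17, not absence.

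**Figure D1:**
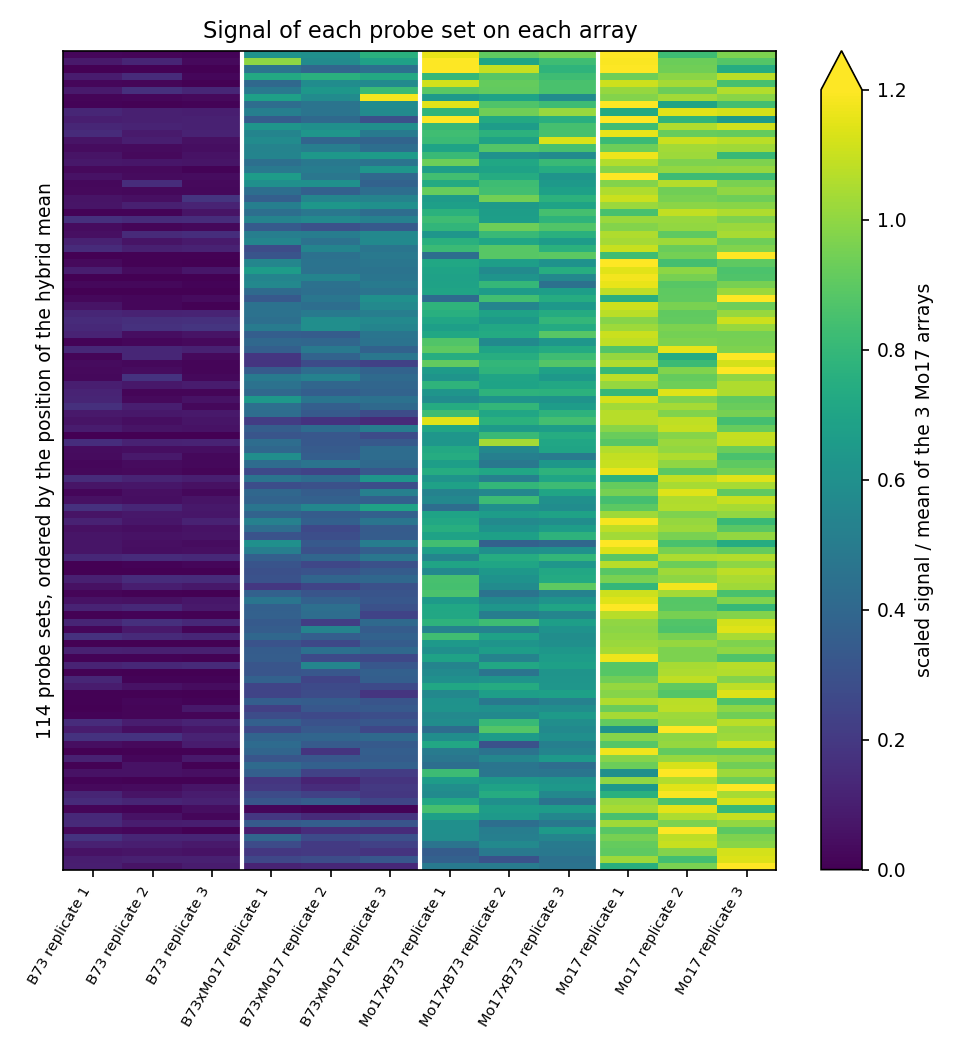
Scaled signal of each of the 114 members (horizontal bands, ordered by the position of the hybrid mean between the inbreds) on each of the 12 arrays (columns), divided by the mean of the 3 Mo17 arrays of that member; the colour scale is linear and values above 1.2 share the brightest colour. The bands step up from B73 through B73xMo17 and Mo17xB73 to Mo17, and the array medians are near 0.34 in B73xMo17 and 0.66 in Mo17xB73 on the scale from B73 to Mo17.

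The 8 brightest members had mean Mo17 signal above 2000. Replicates are given in the order 1, 2 and 3. The brightest, Zm.14705.1.S1_at, read 10.5, 13.1 and 3.48 in B73, 3561, 3536 and 3069 in B73xMo17, 4507, 4059 and 3676 in Mo17xB73, and 7713, 6244 and 5703 in Mo17. It was all but dark in B73, and its genotypes did not overlap. Both hybrids lay closer to each other than dose places them, at 0.516 ± 0.0423 and 0.622 ± 0.0635 of the way from B73 to Mo17 (SD over hybrid arrays, n = 3).

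Zm.17686.1.A1_at read 5.23, 0.529 and 9.12 in B73, 1006, 1061 and 1120 in B73xMo17, 1700, 1600 and 1631 in Mo17xB73, and 2613, 2186 and 2472 in Mo17. Its hybrids were at 0.437 ± 0.0235 and 0.677 ± 0.0213, so that Mo17xB73 lay at the dose value and B73xMo17 above it. Zm.14497.4.A1_at read 7.64, 1.28 and 2.03 in B73, 689, 715 and 606 in B73xMo17, 1386, 1778 and 1624 in Mo17xB73, and 2027, 2147 and 2398 in Mo17. Its positions of 0.305 ± 0.0261 and 0.728 ± 0.0905 lay slightly below dose in B73xMo17 and slightly above it in Mo17xB73.

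Zm.15506.1.A1_at was farther from dose. It read 514, 754 and 638 in B73xMo17 and 2513, 2194 and 2430 in Mo17xB73, against 92.4, 67.1 and 51.0 in B73 and 2927, 2261 and 3102 in Mo17. Its Mo17xB73 arrays overlapped the Mo17 arrays, and f was 0.824. Zm.10507.1.S1_at read 702, 768 and 894 in B73xMo17 and 1021, 830 and 1223 in Mo17xB73, against 258, 290 and 294 in B73 and 2802, 2284 and 3110 in Mo17. Here both hybrids stayed in the lower part of the range, at 0.207 ± 0.0397 and 0.304 ± 0.0801.

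The other bright members had measurable B73 signal. Zm.9528.1.A1_at averaged 474 in B73, 1580 in B73xMo17, 2119 in Mo17xB73 and 2962 in Mo17, which was the highest B73 mean of any member. Zm.14007.1.A1_at averaged 102, 1278, 2088 and 2582 in the same order, and Zm.10169.2.S1_at averaged 143, 584, 1554 and 2236. All of the 8 brightest had Mo17xB73 above B73xMo17 on average, a direction that the lower limit of f of 0.4 favours.

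**Figure D2:**
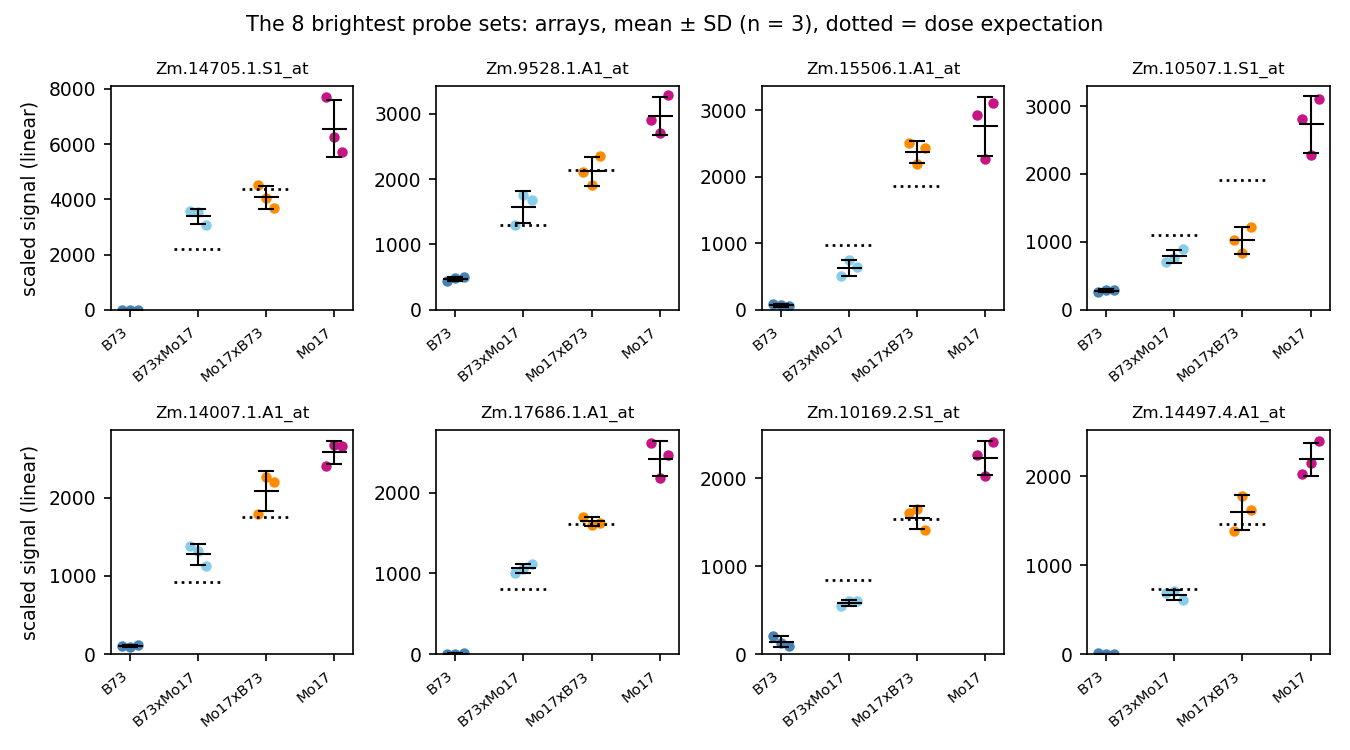
Scaled signal (linear axis from 0, 1 panel for each of the 8 brightest members) on each array of B73, B73xMo17, Mo17xB73 and Mo17; points are arrays, bars the mean ± SD (n = 3), and dotted lines mark the level given by dose in each hybrid. Zm.17686.1.A1_at and Zm.10169.2.S1_at have Mo17xB73 at the dotted line, Zm.10507.1.S1_at lies below it in both hybrids, and Zm.15506.1.A1_at lies below it in B73xMo17 and above it in Mo17xB73.

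How the hybrids stood between the inbreds was set by the rule in part. Each array was placed on a scale where the B73 mean is 0 and the Mo17 mean is 1, and the median over the 114 members was taken. The B73xMo17 arrays stood at 0.346, 0.334 and 0.347, a mean of 0.342 ± 0.00704 (SD, n = 3). The Mo17xB73 arrays stood at 0.682, 0.656 and 0.649, a mean of 0.662 ± 0.0172 (SD, n = 3). The Mo17xB73 mean differed from 0.667 by less than its SD, and the B73xMo17 mean exceeded 0.333 by slightly more than its SD. The limits on f fix the difference between the hybrids to a broad band around dose, so these medians are a description with no test. The limits on f leave the mean of the hybrids free, but the scale rests on the inbred arrays that chose the members, so this mean too is a description. It stood at 0.50 ± 0.00608 over the 3 replicate numbers, each averaging its B73xMo17 and Mo17xB73 arrays. Scaling moves these levels, since scaling to the array median placed the hybrids at 0.306 and 0.589 and left their mean at 0.454.

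Single members scattered more widely than the medians. The position of B73xMo17 had quartiles of 0.272 and 0.451 and ran from -0.0127 to 0.811. In 61 members it lay within 0.1 of dose, in 33 it was higher and in 20 lower. The position of Mo17xB73 had quartiles of 0.590 and 0.738 and ran from 0.304 to 1.17, with 76 members within 0.1 of dose, 19 higher and 19 lower. The mean of the hybrids lay within 0.1 of 0.5 in 78 members, above in 20 and below in 16. The medians changed little with brightness: over the dimmest, middle and brightest 38 members they were 0.349, 0.345 and 0.329 in B73xMo17 and 0.632, 0.660 and 0.659 in Mo17xB73.

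**Figure D3:**
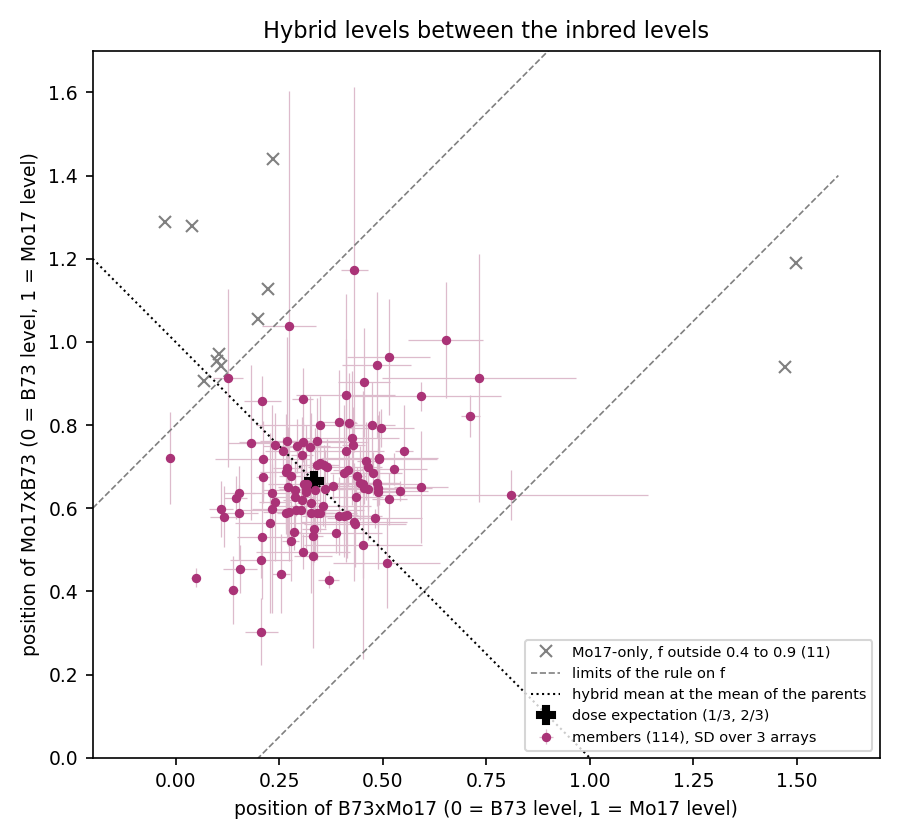
Position of each member between the inbreds (0 is the B73 mean, 1 the Mo17 mean) in B73xMo17 (horizontal axis) and Mo17xB73 (vertical axis), with SD over 3 hybrid arrays as bars; crosses are the 11 Mo17-only probe sets outside the limits on f (dashed lines). The members spread around the dose point along and across the dotted line on which the hybrid mean equals the mean of the inbreds, and the band between the dashed lines was set by the rule.

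The female weight f, which was part of the rule, had a median of 0.655 with quartiles of 0.602 and 0.709, and dose alone gives 0.667. It lay from 0.6 to under 0.7 in 55 members, from 0.5 to under 0.6 in 26 and from 0.7 to under 0.8 in 26, with 2 members lower and 5 higher. Of the members with f nearest the dose value, Zm.16300.1.A1_at read 24.1, 27.8 and 13.2 in B73, 252, 317 and 281 in B73xMo17, 484, 575 and 504 in Mo17xB73, and 592, 717 and 899 in Mo17. The genotypes stood apart in order, with hybrids at 0.366 ± 0.0459 and 0.699 ± 0.0668. Zm.14916.2.S1_at averaged 110, 323, 545 and 784 from B73 to Mo17, and Zm.161.2.S1_a_at averaged 2.45, 182, 326 and 441. Zm.5083.3.A1_at reached the same f of 0.667 from uneven arrays, with 107, 248 and 183 in Mo17 and 148, 84.8 and 83.6 in Mo17xB73.

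The thresholds cut through a continuum. Just inside the minimum, the lowest Mo17 arrays of ZmAffx.36.1.A1_at, Zm.12414.1.A1_at and Zm.5083.3.A1_at were 103, 103 and 107, and just outside it those of Zm.14873.1.A1_at, Zm.17670.1.A1_at and Zm.13324.1.S1_at were 92.7, 92.2 and 91.3. The ratio of lowest Mo17 to highest B73 array was 5.13, 5.19 and 5.20 in Zm.14137.2.S1_at, Zm.17336.1.A1_at and Zm.18058.1.A1_at, against 4.99, 4.91 and 4.85 in Zm.18094.1.A1_at, Zm.6579.1.A1_at and Zm.17655.1.S1_s_at. At the upper end of f, Zm.6195.1.A1_x_at, Zm.7304.2.S1_a_at and Zm.1583.3.A1_x_at had 0.871, 0.883 and 0.893, and Zm.16934.1.A1_at, Zm.6048.2.S1_at and Zm.1583.2.A1_a_at had 0.916, 0.919 and 0.926. At the lower end, ZmAffx.963.1.A1_at, Zm.12625.1.A1_at and Zm.2343.1.S1_at had 0.411, 0.479 and 0.529. The 2 probe sets outside it, Zm.13679.1.A1_at and Zm.12.1.S1_at, had 0.346 and 0.234, and Zm.12.1.S1_at averaged 449 in B73, 14071 in B73xMo17, 9147 in Mo17xB73 and 9707 in Mo17.

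The hybrids together were then compared with the inbreds together. The limits on f do not fix this difference, but the inbred arrays in it also chose the members, so that chance error in those arrays entered both the choice and the comparison. The counts and p-values for members therefore describe them and are not independent of the rule. Under dose the hybrids together carry as many Mo17 as B73 doses, so their mean should equal the mean of the inbreds. The test was limma's moderated test on log2 of scaled signal plus 10.6, fitted to all 17621 probe sets that are not controls, with Benjamini-Hochberg adjustment over all of them, two-sided, at a threshold of 0.05. All 114 members were tested, since no filter on low signal was applied. The adjusted p passed for a higher hybrid mean in 0 of 114 members, where 0.0795% of all probe sets were called higher, and for a lower hybrid mean in 2 members, where 0.0397% of all probe sets were called lower. At an unadjusted p under 0.05 in limma, 15 members were higher and 6 lower. These 21 of 114 members stand against 1318 of all 17621 probe sets in either direction, a larger share among the members. Limma on the linear scale also called 0 members higher after adjustment.

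The differences were small for most members. Their median was 0.00 on the log2 scale, both over the members and over all probe sets, and 58 members lay above 0 and 56 below. The median standard error was 0.16, and the differences ran from -0.75 to 0.69. The estimate lay within 1.5-fold of the parent mean in 109 members, but the 95% confidence interval lay within 1.5-fold in 71, so for the other members these arrays do not exclude a departure of that size. The interval held 0 in 93 members.

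Both members called lower had hybrids well under dose. ZmAffx.450.1.A1_at read 62.9, 71.0 and 62.4 in B73, 207, 214 and 192 in B73xMo17, 374, 518 and 513 in Mo17xB73, and 960, 1040 and 1195 in Mo17. No genotypes overlapped, and the hybrids stood at 0.139 ± 0.0112 and 0.403 ± 0.0813. Its hybrid mean was below the parent mean by a log2 difference of -0.74 (SE 0.113, limma adjusted p = 0.0215). Zm.10507.1.S1_at, with its arrays given above, had a log2 difference of -0.73 (SE 0.119, limma adjusted p = 0.0326). Over 20 alternative settings the adjusted p of ZmAffx.450.1.A1_at ran from 0.0118 to 0.270 and passed in 13, and that of Zm.10507.1.S1_at ran from 0.00668 to 0.219 and passed in 11. Neither passed without B73 replicate 3 or without Mo17 replicate 3, which left 0 members called, or on values as deposited.

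Other members at the low end did not pass. Zm.5973.1.S1_at read 45.9, 29.5 and 42.1 in B73, 54.6, 60.5 and 63.4 in B73xMo17, 222, 227 and 209 in Mo17xB73, and 342, 438 and 587 in Mo17, with a log2 difference of -0.75 (SE 0.162, limma adjusted p = 0.164). Its Mo17 arrays varied more than its hybrid arrays. Zm.5114.1.A1_at and Zm.12387.1.S1_at had log2 differences of -0.54 and -0.49 with limma adjusted p-values of 0.164 and 0.802.

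At the high end, ZmAffx.752.1.A1_at read 8.88, 6.78 and 4.95 in B73, 262, 253 and 322 in B73xMo17, 492, 384 and 402 in Mo17xB73, and 513, 350 and 409 in Mo17. Mo17xB73 overlapped Mo17 completely, and the log2 difference of the hybrid mean was 0.69 (SE 0.141, limma adjusted p = 0.134). Zm.6195.1.A1_x_at, Zm.3607.1.A1_at, Zm.6195.1.A1_at and Zm.13120.1.A1_at had differences of 0.66, 0.58, 0.52 and 0.51, with limma adjusted p-values from 0.446 to 0.592. Zm.13120.1.A1_at is among the 3 members with the widest spread between Mo17 arrays.

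**Figure D4:**
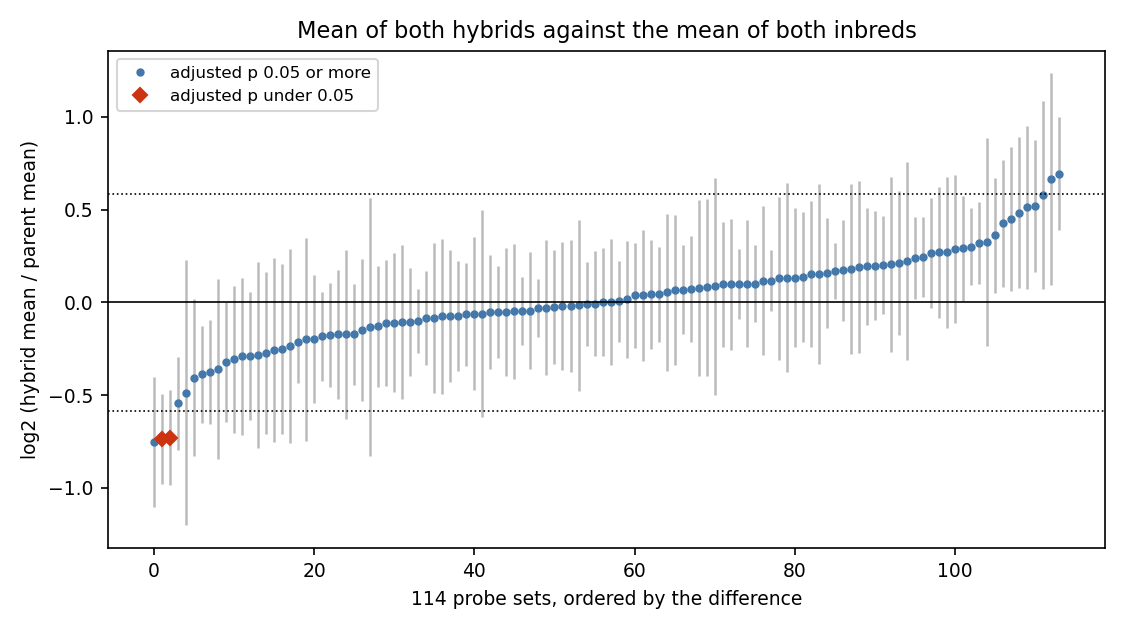
Log2 difference of the mean of both hybrids from the mean of both inbreds for each of the 114 members (points, ordered by the difference) with its 95% confidence interval from limma (vertical lines); dotted lines mark 1.5-fold either way. Most points lie close to 0, and diamonds mark ZmAffx.450.1.A1_at and Zm.10507.1.S1_at, the 2 members with adjusted p under 0.05, at -0.74 and -0.73.

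Each hybrid was then set against its own dose level. These comparisons contain the difference between the hybrids, which the rule limited, and they share the inbred arrays, so the counts are a description from which nothing is read. B73xMo17 was above dose in 3 members, where 0.250% of all probe sets were called higher, and below dose in 6, where 0.392% were called lower (limma, adjusted p under 0.05). Mo17xB73 was above dose in 0 members, where 0.193% of all probe sets were called higher, and below dose in 1 member, Zm.10507.1.S1_at, where 0.0908% were called lower. For Mo17xB73, 8 members were higher and 7 lower at an unadjusted p under 0.05 in limma. These 15 of 114 members stand against 1765 of all 17621 probe sets. For B73xMo17 the same threshold passed 42 of 114 members, against 2042 of all 17621 probe sets. Limma on the linear scale also called 0 members above dose in Mo17xB73 after adjustment. With the replicate number as a block, the count of members below dose in Mo17xB73 was 2. Without Mo17 replicate 2 the counts for B73xMo17 were 0 above and 3 below, and without B73xMo17 replicate 3 the count above was 0. The difference of B73xMo17 from dose was more positive than that of Mo17xB73 in 2 members and more negative in 6, where 1.22% and 1.14% of all probe sets were so called.

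The member farthest from dose by the fitted log2 difference was Zm.13013.1.A1_at. It read 3.46, 2.54 and 7.97 in B73, 3.48, 1.44 and 2.17 in B73xMo17, 157, 124 and 123 in Mo17xB73, and 193, 213 and 148 in Mo17. B73xMo17 was as dark as B73, while Mo17xB73 was 0.721 ± 0.110 of the way to Mo17 (SD, n = 3). In B73xMo17 it was below dose by a fitted log2 difference of -2.53 (limma adjusted p = 8.17e-05), a value that depends on the constant of 10.6 because the B73xMo17 arrays lie under it. By position between the inbreds, ZmAffx.963.1.A1_at was farther from dose, at 0.811 in B73xMo17. So was Zm.6195.1.A1_x_at, at 1.17 in Mo17xB73.

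Among the others below dose in B73xMo17, Zm.1583.3.A1_x_at read 171, 142 and 115 in B73xMo17 and 917, 613 and 674 in Mo17xB73, against 49.0, 37.0 and 55.5 in B73 and 858, 868 and 674 in Mo17. Mo17xB73 overlapped Mo17, and B73xMo17 stayed near the B73 end at 0.127 ± 0.0368. ZmAffx.788.1.A1_at read 6.92, 4.76 and 3.16 in B73, 104, 66.0 and 100 in B73xMo17, 369, 354 and 347 in Mo17xB73, and 558, 593 and 523 in Mo17. Its Mo17xB73 position of 0.636 ± 0.0206 was close to dose and its B73xMo17 position of 0.154 ± 0.0381 was not. Zm.5973.1.S1_at, ZmAffx.450.1.A1_at and Zm.5114.1.A1_at were the remaining members below dose, with log2 differences of -1.40, -0.93 and -0.72.

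The members above dose in B73xMo17 were ZmAffx.963.1.A1_at, ZmAffx.752.1.A1_at and Zm.6067.1.S1_at, with log2 differences of 1.10, 0.90 and 0.56. ZmAffx.963.1.A1_at read 250, 213 and 433 in B73xMo17 and 236, 256 and 212 in Mo17xB73, against 6.22, 7.30 and 11.6 in B73 and 358, 379 and 361 in Mo17. The hybrids overlapped, and 1 B73xMo17 array lay above every Mo17 array. Zm.6067.1.S1_at read 1056, 1007 and 995 in B73xMo17 and 1347, 1115 and 1427 in Mo17xB73, between B73 arrays of 186 to 214 and Mo17 arrays of 1396 to 1877.

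The B73xMo17 arrays, with Mo17 as the paternal genome, lay above the B73 arrays in nearly all members. In limma, B73xMo17 was higher than B73 in 111 of 114 members at an adjusted p under 0.05, where 3.44% of all probe sets were called higher, and in 74 members when limma was run on the linear scale. The B73xMo17 and B73 arrays did not overlap in 113 members, all with B73xMo17 higher, against 21.5% of all probe sets without overlap in either direction. The B73 arrays had been chosen as low by the rule, and f under 0.9 bounds how close B73xMo17 could come to B73 where the other hybrid stayed near Mo17, so nothing is read from the share. The 3 members not called were Zm.13013.1.A1_at, Zm.4164.3.A1_s_at and Zm.5973.1.S1_at. Zm.4164.3.A1_s_at read 30.7, 22.6 and 28.9 in B73xMo17 against 21.9, 8.97 and 3.18 in B73, without overlap.

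From Mo17 to Mo17xB73, where B73 supplied the paternal dose, the number of members called depended on the scale and scaling. On the log2 scale limma called Mo17xB73 lower than Mo17 in 30 of 114 members, where 1.59% of all probe sets were called lower, and the median log2 difference was -0.54. At an unadjusted p under 0.05, 80 members passed, and the adjusted count was 17 without Mo17 replicate 2 and 19 without Mo17 replicate 3. It was 13 on values as deposited, 54 with a constant of 50, 58 under median scaling and 72 in limma on the linear scale, where the count of B73xMo17 above B73 was 74. Every Mo17 array lay above every Mo17xB73 array in 88 members, against 11.1% of all probe sets. The mean of Mo17xB73 was at or above that of Mo17 in 3 members. The Mo17 arrays had been chosen as high by the rule.

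Between the hybrids, the Mo17xB73 arrays were all higher than the B73xMo17 arrays in 96 members, against 12.3% of all probe sets, and B73xMo17 had the higher mean in 2 members. All 4 genotypes stood in the order B73, B73xMo17, Mo17xB73, Mo17 without overlap in 76 members, against 1.50% of all probe sets. These orders are partly set by the rule.

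In some members the same crossing date was high in several genotypes. Zm.7304.2.S1_a_at read 730, 370 and 310 in Mo17 and 760, 342 and 357 in Mo17xB73, with replicate 1 well above the others in both, but 165, 192 and 137 in B73xMo17. Zm.13120.1.A1_at read 281, 135 and 162 in Mo17 and 221, 168 and 159 in Mo17xB73, but 82.8, 88.9 and 113 in B73xMo17, where replicate 1 was the lowest. Zm.161.2.S1_x_at had replicate 3 highest in Mo17 and B73xMo17, with 932, 1127 and 1667 in Mo17, 415, 584 and 748 in B73xMo17, and 523, 1041 and 922 in Mo17xB73. The same replicate was highest in Mo17 and in both hybrids for 25 members (21.9%), against 16.99% of all probe sets. It was replicate 1 for 15 members (13.2%), against 11.5% of all probe sets, so the lead of replicate 1 was not particular to the members. It was replicate 3 for 8 members (7.02%), against 2.74% of all probe sets, and replicate 2 for 2 members (1.75%), against 2.77%. Within Mo17 alone, replicate 1 was highest for 44.7% of members and 52.8% of all probe sets. The coefficient of variation among Mo17 arrays had a median of 10.6% over members and reached 48.3% in Zm.7304.2.S1_a_at.

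Probe set names on this array carry the number of the cluster of expressed sequences from which the probes were designed, so probe sets with the same number can report parts or variants of related transcripts and are not independent. The 114 members fell into 108 numbered clusters, 4 of which held more than 1 member. Zm.13412 had 3 members, averaging 10.6, 118, 316 and 425 (Zm.13412.1.S1_at), 27.3, 140, 280 and 359 (Zm.13412.1.S1_x_at), and 0.626, 32.3, 87.6 and 137 (Zm.13412.2.S1_at) from B73 through B73xMo17 and Mo17xB73 to Mo17. Their f values of 0.738, 0.710 and 0.703 were close to each other. The 3 members of Zm.17339 averaged 143, 156 and 190 in Mo17 and had f of 0.680, 0.661 and 0.613. In Zm.161 the members Zm.161.2.S1_a_at and Zm.161.2.S1_x_at had f of 0.664 and 0.602. In Zm.6195 the members Zm.6195.1.A1_at and Zm.6195.1.A1_x_at had f of 0.725 and 0.871, and in both Mo17xB73 overlapped Mo17.

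The other probe sets of these clusters were non-members. Unannotated ones that met the whole rule had been counted as members, so those left lack the full pattern by the choice. Some met the inbred part of the rule and failed only on f, such as Zm.1583.2.A1_a_at with f of 0.926. The members' clusters held 98 further probe sets, in 46 clusters that include 49 of the members. Of these, 57 had a mean signal of 100 or more over all arrays, and 36 of the 57 were within 2-fold between the inbreds. The others of the 57 were higher in Mo17 in 14 cases and higher in B73 in 7. The median ratio of Mo17 to B73 over the 57 was 1.05. A cut on the mean over all arrays favours probe sets with signal in both inbreds. Probe sets under it were not classed, and they included some brighter in Mo17 and some brighter in B73. In 24 of the 46 clusters a probe set that passed the cut was within 2-fold between the inbreds and so had signal in B73. Levels of different probe sets cannot be compared with each other.

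Among the clusters of the brightest members, Zm.10169.2.S1_x_at, of the cluster of Zm.10169.2.S1_at, averaged 5767 in B73, 3476 in B73xMo17, 5623 in Mo17xB73 and 6120 in Mo17. The ending x_at marks probes that also match other sequences, so its signal need not come from the transcript of the member. Zm.9528.2.A1_at, of the cluster of Zm.9528.1.A1_at, averaged 445, 455, 851 and 806 from B73 to Mo17, and Zm.14007.1.A1_s_at, of that of Zm.14007.1.A1_at, averaged 1279, 1157, 952 and 572. The means of these 2 probe sets ran in opposite directions. The cluster of Zm.14497.4.A1_at was the largest of these, and its other probe sets ranged from higher in B73 to higher in Mo17.

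In 3 clusters a probe set had the opposite pattern to the member, with B73 at least 5-fold above Mo17. These were chosen after their values were seen. Zm.17662.1.S1_at read 1366, 1561 and 1801 in B73, 1412, 1454 and 1954 in B73xMo17, 589, 584 and 546 in Mo17xB73, and 31.1, 9.61 and 5.97 in Mo17. Its member, Zm.17662.2.S1_x_at, read 66.3, 127 and 98.3 in B73, 370, 488 and 626 in B73xMo17, 684, 701 and 654 in Mo17xB73, and 773, 712 and 815 in Mo17. The B73 and B73xMo17 arrays of Zm.17662.1.S1_at overlapped. From B73xMo17 through Mo17xB73 to Mo17 its signal fell, while that of the member rose.

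Zm.10557.2.A1_at averaged 177, 147, 79.2 and 11.8 from B73 through B73xMo17 and Mo17xB73 to Mo17, while the member Zm.10557.1.A1_x_at averaged 8.50, 128, 174 and 265. Zm.14497.1.A1_at, which is annotated as LOC542301, averaged 507, 374, 309 and 32.1, while the member Zm.14497.4.A1_at averaged 3.65, 670, 1596 and 2191. In these clusters low signal of the member in B73 went with high signal of another probe set of the same number in B73.

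**Figure D5:**
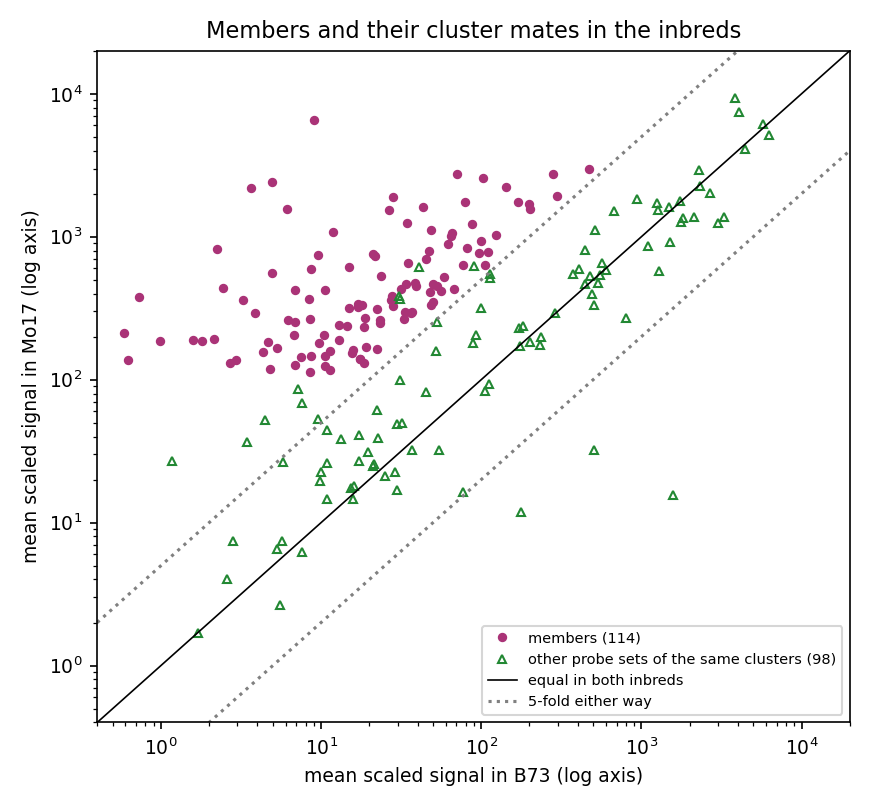
Mean scaled signal (n = 3 arrays, log axes) in B73 (horizontal) and Mo17 (vertical) for the 114 members (filled circles) and the 98 other probe sets with the same cluster numbers (open triangles); the solid line marks equal signal and dotted lines 5-fold either way. Members lie above the upper dotted line by the rule, most brighter triangles lie near the solid line, and Zm.17662.1.S1_at, Zm.10557.2.A1_at and Zm.14497.1.A1_at lie below the lower dotted line with more than 100 in B73.

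The members' names were unevenly spread over the cluster numbers, a feature noticed after the values were seen and given with no test. Numbers over 17000 and up to 18000 were held by 26 members (22.8%), against 5.18% of unannotated probe sets and 3.07% of the 163 probe sets with the mirrored pattern. Numbers over 8000 and up to 10000 were held by 3.51% of members, 8.80% of unannotated probe sets and 16.6% of the mirrored set. Names ending in x_at, which mark probe sets with probes that also match other sequences, made up 7.89% of members and 3.39% of unannotated probe sets.

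The mirrored rule, with B73 and Mo17 exchanged, gave 163 B73-only probe sets. They were placed on a scale from Mo17 at 0 to B73 at 1. Their array medians averaged 0.687 ± 0.0190 in B73xMo17 and 0.347 ± 0.00957 in Mo17xB73 (SD, n = 3). The hybrid with 2 doses of the inbred with signal was the higher in both sets. The limits on f favour this direction in both, so nothing is read from it. The hybrid mean was called higher in 2 and lower in 1 of the 163, against 0 and 2 of the 114 members. The difference between the sets was not tested.

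The rule left out 6 annotated probe sets that met its inbred part, and they are named here after their values were seen. They also met the limits on f, with f from 0.468 to 0.769, and were left out only for their annotation. They carry the annotations opr1, LOC542651, LOC542118, LOC542444, LOC542459 and LOC732794. For opr1, named for oxophytodienoate reductase, the means were 97.7 in B73, 115 in B73xMo17, 590 in Mo17xB73 and 980 in Mo17. For LOC542651 they were 5.56, 556, 1168 and 1407, which resembles the members with the darkest B73 arrays. For LOC542444 they were 518, 3848, 4864 and 5684. Its hybrid mean was above the parent mean by a log2 difference of 0.48 (SE 0.0792, limma adjusted p = 0.0326). The hybrid means of the other annotated probe sets named here were not called.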

How the data were processed

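RNA from endosperm pools of 4 genotypes, 3 arrays each, was hybridised to Affymetrix maize arrays. MAS5 produced the deposited intensity values, as the submitters' processing notes list it, and which version and target intensity were used is not given in the sources used here. MAS5 subtracts mismatch signal and summarises each probe set, so low values carry little order.

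Each array was scaled to the mean of the 12 trimmed means (2% at each end, all 17734 probe sets). The rule was applied to linear values. Tests used log2 of scaled signal plus 10.6 (the 20th percentile of values other than controls) in limma 3.58.1 under R 4.3.3, with 1 mean per genotype, a mean-variance trend and 8 residual degrees of freedom. Dose levels were formed on the linear scale, with standard errors by the delta method. All 17621 probe sets that are not controls were tested. Code was tested on simulated data.

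The members, lists, tests and rule for naming probe sets were chosen with earlier results of these data known. Probe sets were named for brightness (8), the highest and lowest hybrid mean (5 each), f nearest dose (4), thresholds, shared cluster numbers and spread in Mo17 (3), plus probe sets called in a comparison.

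Per the labels, arrays with the same replicate number share a crossing date, so the numbers pair the samples. Deviations from genotype means correlated at -0.00299 to 0.219 over 18 pairs of arrays with the same number and at -0.185 to 0.0838 over 36 pairs with different numbers. Such deviations cancel over the arrays of a genotype, so these ranges are tied to each other and the second is not an independent contrast. Alternatives changed the scaling, the rule's thresholds, the added constant, the filter on dim probe sets, the replicate block, the scale of the fit, the trend and the arrays used. No probe or target sequences were used here.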

Additional observations from a re-analysis of the deposited data

Results flagged for a closer look

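In 8 members the departure from dose differed between B73xMo17 and Mo17xB73 in limma at an adjusted p under 0.05, with 1.22% of all probe sets called positive and 1.14% called negative. The departure is the log2 difference of B73xMo17 from dose minus that of Mo17xB73. The rule limited the difference between the hybrids, so these values describe the members. No explanation was weighed, and groups of 3 arrays were not searched for single outlying arrays.

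The departure was negative, with B73xMo17 the lower relative to dose, in 6 members. It was -2.64 (SE 0.213, adjusted p = 5.63e-05) in Zm.13013.1.A1_at, where B73xMo17 was as dark as B73. It was -1.42 in Zm.1583.3.A1_x_at (SE 0.184, adjusted p = 0.00183) and -0.96 in Zm.15506.1.A1_at (SE 0.182, adjusted p = 0.0150), members in which Mo17xB73 overlapped Mo17. It was -0.94 in ZmAffx.788.1.A1_at (adjusted p = 0.0108) and -0.92 in Zm.5973.1.S1_at (adjusted p = 0.0238). In Zm.17783.1.S1_at, which averaged 45.3, 202, 538 and 700 from B73 to Mo17, it was -0.52 (adjusted p = 0.0461).

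The departure was positive in 2 members. It was 0.73 (SE 0.169, adjusted p = 0.0412) in Zm.14705.1.S1_at, the brightest member, and 1.17 (SE 0.214, adjusted p = 0.0130) in ZmAffx.963.1.A1_at, whose hybrids overlapped.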

How the results depend on the processing

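The rule gave 196 members at a ratio of 3 and 59 at a ratio of 10, and 111 to 137 when an array was left out. Median positions were sensitive to scaling. B73xMo17 stood at 0.302 and the hybrid mean at 0.481 on values as deposited, B73xMo17 at 0.331 under quantile normalization, and B73xMo17, Mo17xB73 and the hybrid mean at 0.306, 0.589 and 0.454 under median scaling. A ratio of 10 put B73xMo17 at 0.357. The hybrid mean stood at 0.510 at a ratio of 3, at 0.516 with a Mo17 minimum of 200 and at 0.492 for names with no letter before at, a setting chosen after seeing the data. With an array left out, the ranges were 0.339 to 0.352 in B73xMo17, 0.651 to 0.671 in Mo17xB73 and 0.496 to 0.515 for the hybrid mean.

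The count with a lower hybrid mean was 0 on values as deposited and with no trend, and 1 under median scaling and in the linear fit. The count above dose in B73xMo17 was 0 as deposited and with no trend, 1 under median scaling and with a constant of 1, and 6 with a constant of 50, and the count below was 1 in the linear fit. The count below dose in Mo17xB73 was 0 as deposited and with no trend, and 2 without the dimmest 33.3% of probe sets, with the replicate block and in the linear fit. The count of Mo17xB73 below Mo17 was 13 as deposited, 58 under median scaling, 54 with a constant of 50 and 72 in the linear fit. With an array left out, these counts ran from 0 to 2, 0 to 4, 3 to 7, 0 to 1 and 17 to 34 in that order, that of B73xMo17 above B73 from 108 to 111 (106 with a constant of 50 and 74 in the linear fit), and those above the parent mean and above dose in Mo17xB73 stayed at 0. With the replicate block the counts were also 4 above and 7 below dose in B73xMo17 and 44 for Mo17xB73 below Mo17, and the counts of the hybrid mean, of Mo17xB73 above dose and of B73xMo17 above B73 were as without it. The cause of these changes was not tested. Whether dim B73 signal limits the positions of the dimmest members was not tested either.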
